A study of Mus musculus with 64 samples.

Results

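Wild-type (WT) mouse cortex was sequenced at 3 adult ages, postnatal week (PWK) 7, 14 and 28, with 4 libraries at each age. These 12 libraries are 12 of the 64 in the series, and they were chosen by the labels for genotype, region and age, not by any measured value. The mice were C57BL/6N WT littermates of Cyfip2 knock-in mice, carried no knock-in allele, and received no treatment. Frontal cortex of both hemispheres was taken from one mouse for each library, in the afternoon of a regular light and dark cycle. The hippocampus of WT mice at the same ages (12 libraries) served for comparison between regions. Different mice were sampled at each age, so an age difference is one between groups of animals, and the labels give no batch or date: age and any batch of dissection or sequencing cannot be told apart. Replicates are separate mice.

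By PWK 7 the mouse cortex has its adult layers and most of its synapses, while myelination, vascular maturation and the tuning of inhibitory circuits go on for longer. Neuronal firing switches on immediate early genes such as Fos, Egr1 and Arc within minutes, through transcription factors that are already present in the cell. Their products then act on slower effector genes, such as Bdnf and Homer1, that adjust synapses. Adrenal glucocorticoids act on the brain through a nuclear receptor that switches on genes such as Sgk1 and Fkbp5, and chaperones of the heat shock family assist protein folding.

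The deposited values were normalized read counts for 18432 genes, of which 18379 had a mean of at least 1 over the 12 libraries and were tested. Totals of the normalized counts, which after scaling do not measure depth, were 31.4 to 31.8 M (M, 1e+06) at PWK 7, 31.7 to 32.04 M at PWK 14 and 30.8 to 31.04 M at PWK 28, so all libraries of PWK 28 lay below the rest. Depth estimated from the step between low values was 25.4 to 32.1 M reads at PWK 7, 28.4 to 35.3 M at PWK 14 and 27.9 to 31.5 M at PWK 28, and these ranges overlapped. The estimate is rough, since only 29.8% to 53.1% of low values lay within 0.1 of a whole number of steps. Pearson correlations over 12615 genes were 0.989 to 0.993 within an age (18 pairs) and 0.978 to 0.990 between ages (48 pairs). A first principal component with 31.8% of the variance set the 4 libraries of PWK 28 apart from the other 8, and a second with 17.02% separated PWK 14 from PWK 7. All 26 markers of cortical layers tested were detected in every library, and the Y-linked Ddx3y was at 1048 to 1769 in all 12, so all mice were male by this measure. In bulk tissue, fewer cells of a type and less RNA per cell cannot be told apart.

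Markers of neighbouring tissue differed between libraries, above all at PWK 28. The 18 striatal neuron markers, among them the dopamine receptor genes Drd1 and Drd2, summed to 11935, 11012, 13333 and 14505 at PWK 7, 11555, 11447, 12838 and 11946 at PWK 14 and 20994, 19279, 14088 and 16002 at PWK 28. Libraries 1 and 2 of PWK 28 were thus the highest of the 12, and library 3 of PWK 28 lay inside the range of PWK 7. The 17 markers of the olfactory bulb summed to 8515, 8209, 8235 and 7945 at PWK 7, 9056, 9626, 10104 and 8362 at PWK 14 and 8328, 7655, 15004 and 16045 at PWK 28, with libraries 3 and 4 of PWK 28 far above the rest. Eomes, a transcription factor of mitral and tufted cells, was at 5.25, 17.7, 7.45 and 6.20 at PWK 7, 8.09, 1.29, 99.3 and 2.69 at PWK 14 and 2.65, 1.83, 277 and 296 at PWK 28. The 18 choroid plexus and ependymal markers summed to 11526, 9604, 9236 and 9078 at PWK 7, 8682, 9888, 8678 and 8814 at PWK 14 and 10403, 43163, 8829.8 and 8615 at PWK 28, with library 2 of PWK 28 far above the rest. Ttr, the transthyretin gene of the choroid plexus, reached 560.2, 20074, 395 and 161 at PWK 28. Between 0 and 2 markers of each of these lists were at 0 in any 1 library. Every count was recomputed without libraries 1 and 2 of PWK 28 (the striatal pair) and without library 3 of PWK 14 and libraries 3 and 4 of PWK 28 (the olfactory set). Each of these fits keeps the other pair of PWK 28, so neither is free of libraries with high markers of neighbouring tissue. A count kept in both fits therefore cannot show that it is independent of the dissection. Of a gene list, the counts of 4 or more that moved by over 1.5 times in these fits, or without a single library, are given beside it, and a smaller count can come from the fewer libraries. One fit of all 64 libraries moved 39 of 68 such counts, and its values are given beside some lists only.

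**Figure D1:**
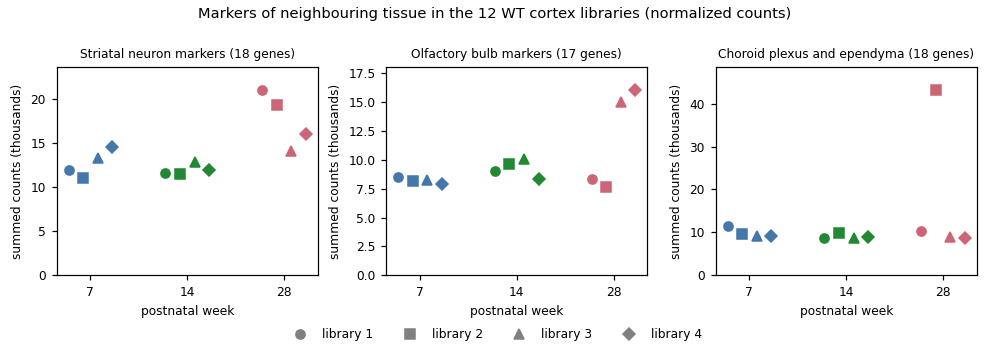
Summed normalized counts, on an axis in units of 1000, of markers of striatal neurons, olfactory bulb and choroid plexus or ependyma in each of the 12 libraries, by postnatal week, with one symbol for each library number. Libraries 1 and 2 of week 28 are highest for striatal markers, libraries 3 and 4 for olfactory bulb markers, and library 2 alone for choroid plexus markers.

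More genes were called in the later step, which spans 14 weeks, than in the earlier one, which spans 7. Between PWK 7 and 14, 1101 genes passed the test (limma on log2 of the value + 1, Benjamini-Hochberg adjusted p under 0.05), 5.99% of those tested, with 673 (3.66%) higher and 428 (2.33%) lower at PWK 14. Between PWK 14 and 28, 2998 genes passed, 16.3%, with 1327 (7.22%) higher and 1671 (9.09%) lower. Over the whole span 3999 passed, 21.8%, with 1924 (10.5%) higher and 2075 (11.3%) lower. The counts of each gene list below are to be set beside these shares of all genes, 5.99%, 16.3% and 21.8% in turn. In 13.4%, 19.2% and 25.0% of genes in turn the 4 libraries of one age did not overlap those of the other. Genes named by rule for a step or the one-way set were required to lack overlap between the ages compared. That lack is no result for them. Few of these differences were large: 79, 191 and 309 called genes in turn differed by at least 1 on the log2 scale, and the median of all genes was within 0.01 of 0 in each comparison. Both steps use the 4 libraries of PWK 14. Without the olfactory set the 3 counts were 817, 1328 and 1971, and without the striatal pair 1186, 2375 and 3329. Leaving out library 1 of PWK 14 lowered the first count to 665, and libraries 2, 3 and 4 of PWK 7 lowered it to 695, 726 and 717. When values were rescaled to equal library totals, 63.4% instead of 44.3% of the calls in the later step were higher at PWK 28, and 59.4% instead of 48.1% over the whole span, so the split between rises and falls depends on the scaling.

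Many genes induced by neuronal activity rose in each step. Of 28 immediate early genes tested, 14 rose and 1 fell from PWK 7 to 14, 16 rose and 2 fell from PWK 14 to 28, and 21 rose and 1 fell over the whole span, where 5.99%, 16.3% and 21.8% of all genes were called. Their median log2 difference was 0.59, 0.46 and 1.00 in turn, against medians between -0.01 and 0.00 for all genes. Egr2, a zinc finger transcription factor (chr10:67535475-67542188, GRCm38), had normalized counts of 49.8, 30.5, 26.02 and 78.1 at PWK 7, 156, 174, 230.4 and 241 at PWK 14 and 463, 444, 493 and 501 at PWK 28. All 4 libraries of each age lay above all those of the age before. The log2 difference was 2.20 (SE 0.26, adjusted p = 1.96e-04) in the first step, 1.26 (SE 0.26, adjusted p = 0.0041) in the second and 3.47 (SE 0.26, adjusted p = 5.72e-07) over the span.

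A promoter of Egr2 is shown because it held a CArG box, the sequence bound by serum response factor at activity-regulated genes. It covers 250 bases before and 50 after a RefSeq start site (GRCm38.p6, chr10:67537316-67537615, plus strand), with the box in capitals:
Egr2: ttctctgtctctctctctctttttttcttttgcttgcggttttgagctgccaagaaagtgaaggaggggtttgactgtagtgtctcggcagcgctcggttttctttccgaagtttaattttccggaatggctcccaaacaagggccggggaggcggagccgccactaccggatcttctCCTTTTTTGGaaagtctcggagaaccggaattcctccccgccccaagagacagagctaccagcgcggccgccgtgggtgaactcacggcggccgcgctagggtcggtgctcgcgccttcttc
Both strands were searched, and 22 of the immediate early genes had a RefSeq promoter. A CArG box was found in 2 of these 22 (Egr2 and Dusp5) and in 1.63% of all 32851 promoter windows. A match is a description of the letters and not evidence of binding.

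Arc, which encodes a cytoskeletal protein that removes AMPA receptors from synapses (chr15:74669083-74672570, GRCm38), was at 1306, 1066, 1487 and 2197 at PWK 7, 3588, 5157, 6101 and 7122 at PWK 14 and 11397, 12045, 12652 and 9900.01 at PWK 28. The ages did not overlap, and the mean at PWK 28 was 7.84 times that at PWK 7 on the fitted scale. Its log2 difference was 1.87 (SE 0.20, adjusted p = 1.13e-04) and then 1.10 (SE 0.20, adjusted p = 0.002).

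Fos, a partner in the AP-1 transcription factor, was at 137, 171, 208 and 345 at PWK 7, 450.1, 672, 860.3 and 802 at PWK 14 and 958, 1052, 1173 and 941 at PWK 28. Every library of PWK 14 was above every one of PWK 7, and every one of PWK 28 above those of PWK 14, but the later difference of 0.60 (SE 0.23, adjusted p = 0.091) did not pass the test. Its relative Fosb rose in both steps, by 1.39 and 0.82, from a range of 153 to 197 at PWK 7 to one of 678 to 1063 at PWK 28.

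Egr1, a factor much used as a marker of recent firing, was at 3209.6, 3273, 3213 and 3991 at PWK 7, 7299, 8910.1, 8399.7 and 7525 at PWK 14 and 9675, 9378, 10230.4 and 10239 at PWK 28. It rose by 1.23 (SE 0.07, adjusted p = 7.02e-07) in the first step and by 0.30 (SE 0.07, adjusted p = 0.012) in the second. Its relative Egr3 rose by 0.62 in the first step and 1.07 in the second, from a range of 2916 to 3455 at PWK 7 to one of 9409 to 11957 at PWK 28. The libraries of the 3 ages overlapped for neither gene.

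**Figure D2:**
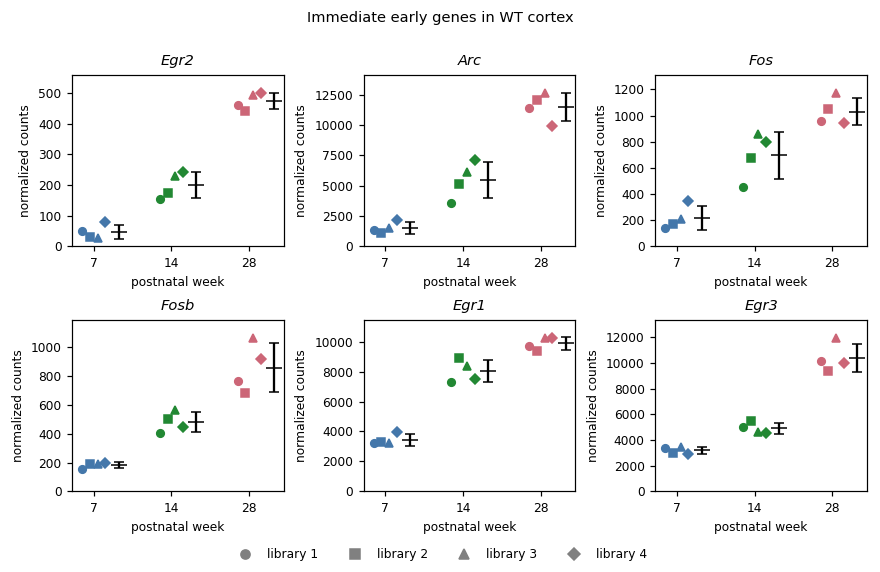
Normalized counts of 6 immediate early genes in the 12 libraries, by postnatal week, with one symbol for each library number and the mean ± SD (n = 4) beside each group. For each of the 6 genes the libraries of each age lie above those of the age before.

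Not every member followed. Klf4, a Krüppel-like factor, fell by 0.79 on the log2 scale in the first step and was at 117, 109, 117 and 110.2 at PWK 14 against 156, 195, 196 and 247 at PWK 7. Jun, the partner of Fos in AP-1, fell in the later step (-0.31, SE 0.07, adjusted p = 0.0086), and Klf6, another Krüppel-like factor, fell over the span (-0.31, SE 0.06, adjusted p = 0.0023). When all 64 libraries set the spread in one fit, the first-step differences of Egr2, Fos, Fosb, Egr1 and Egr3 had adjusted p values of 0.12, 0.26, 0.16, 0.18 and 0.13, while their whole-span calls were kept. Without the olfactory set, Egr1 and Egr2 lost the later call (adjusted p = 0.12 and 0.053). The list had 19 rises and 1 fall over the span both without the striatal pair and without the olfactory set, and 10 rises in the later step without the olfactory set. In one fit of all 64 libraries 2 rose in the first step and 7 in the second.

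The slower effectors of activity rose mainly in the later step. Of 24 tested, 6 rose from PWK 7 to 14, 18 from PWK 14 to 28 and 21 over the span, with none lower and median differences of 0.10, 0.64 and 0.82. Bdnf, a neurotrophin released by active synapses, was at 631, 682, 496 and 524 at PWK 7, 716, 729.9, 567 and 454 at PWK 14 and 1206, 1109, 1425 and 1231 at PWK 28. PWK 7 and 14 overlapped, and PWK 28 stood above both (1.03, SE 0.14, adjusted p = 2.48e-04). Inhba, which encodes the activin A subunit, rose from a range of 309.6 to 396 at PWK 14 to one of 767 to 1231 at PWK 28, a difference of 1.53 (SE 0.13, adjusted p = 7.44e-06).

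Homer1, a postsynaptic scaffold whose short form is induced by firing, was at 5449.7, 4575, 4801 and 4269.9 at PWK 7, 7171, 7441, 6129.9 and 5002 at PWK 14 and 10229, 9878, 11984 and 11564 at PWK 28. The later difference was 0.77 (SE 0.11, adjusted p = 3.02e-04). The earlier one was 0.42 (SE 0.11), and its adjusted p rose to as much as 0.1 when libraries 1, 2 or 3 of PWK 14 or libraries 2, 3 or 4 of PWK 7 were left out one at a time. Ptgs2, the inducible cyclooxygenase, was at 352, 322, 357 and 280.4 at PWK 7, 400.2, 499.6, 477 and 459 at PWK 14 and 1068, 836, 1201 and 962 at PWK 28, without overlap between ages. It rose by 0.49 (adjusted p = 0.053 without library 4 of PWK 7) and then by 1.14 (SE 0.11, adjusted p = 2.69e-05).

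Further members rose in the later step. They were Rasd1, a Ras-like protein, by 1.48 (SE 0.16, adjusted p = 7.49e-05), Nptx2, a pentraxin that gathers AMPA receptors, by 0.99 (SE 0.07, adjusted p = 2.91e-06), Gpr3, an orphan receptor that raises cAMP, by 0.85 (SE 0.16, adjusted p = 0.0026), and Scg2, a secretory granule protein, by 0.96 (SE 0.13, adjusted p = 2.19e-04). Fosl2, from the immediate early list, rose by 0.91 (SE 0.10, adjusted p = 4.66e-05). In the later step 15 of the 24 effectors passed without the olfactory set and 17 without the striatal pair. The 6 rises of the first step were 3 without library 3 of PWK 14, 2 without library 3 or 4 of PWK 7 and 2 without the olfactory set. In one fit of all 64 libraries 1 effector rose in the first step.

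Genes that respond to glucocorticoids rose between PWK 14 and 28. Of 19 tested, 0 rose and 1 fell in the first step, 17 rose and 0 fell in the second, and 16 rose and 0 fell over the span. The median difference was 0.02, 0.57 and 0.50 in turn. Sgk1, a kinase that regulates ion channels (chr10:21882184-21999903, GRCm38), was at 2086, 2048, 2175 and 1909.9 at PWK 7, 1696, 1672, 2547 and 1546 at PWK 14 and 4634, 4362, 3983 and 3704 at PWK 28. PWK 28 stood above both earlier ages, and within PWK 14 library 3 was the highest. The later difference was 1.18 (SE 0.12, adjusted p = 3.72e-05) and the earlier one -0.17 (SE 0.12, adjusted p = 0.47).

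The Sgk1 promoter (RefSeq, GRCm38.p6, chr10:21993640-21993939, plus strand) is shown because it held the consensus of the glucocorticoid response element, AGAACA and TGTTCT 3 bases apart, in capitals here:
Sgk1: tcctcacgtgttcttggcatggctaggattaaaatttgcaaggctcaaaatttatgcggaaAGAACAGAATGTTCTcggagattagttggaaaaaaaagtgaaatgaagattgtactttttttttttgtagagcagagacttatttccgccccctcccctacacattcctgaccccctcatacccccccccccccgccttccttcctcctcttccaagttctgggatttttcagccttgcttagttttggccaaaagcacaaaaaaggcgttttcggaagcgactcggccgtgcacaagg
This sequence was in 1 of the 17 glucocorticoid-responsive genes with a RefSeq promoter, and in 3 of all 32851 windows (0.00913%) when both strands were searched.

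Fkbp5, a chaperone that holds the glucocorticoid receptor inactive, was at 767, 837, 819.7 and 758 at PWK 7, 723, 724, 931 and 702 at PWK 14 and 1897, 1439.9, 1822 and 1379 at PWK 28. The later difference was 1.08 (SE 0.11, adjusted p = 3.14e-05). Cdkn1a, the cell cycle inhibitor p21, was at 308, 396, 339.9 and 342 at PWK 7, 399, 417, 433 and 337 at PWK 14 and 1221, 1115, 1682 and 1349.5 at PWK 28, and its libraries of PWK 28 lay far above a joint range of PWK 7 and 14 (1.75, SE 0.12, adjusted p = 1.72e-06). Tsc22d3, a leucine zipper protein that mediates the anti-inflammatory action of glucocorticoids, rose by 0.67 (SE 0.08, adjusted p = 1.31e-04). Plin4, a lipid droplet protein, was at 169.8, 349, 289.8 and 162 at PWK 7, 283, 347, 684 and 514 at PWK 14 and 1337, 1003, 1210.00 and 815 at PWK 28 and rose by 1.31 (SE 0.27, adjusted p = 0.0049) in the later step, and the arrestin-like Arrdc2 rose by 0.94 (SE 0.14, adjusted p = 4.93e-04). The list kept 15 rises in the later step without the olfactory set and 15 without the striatal pair. The sums over the 19 genes were 28026 to 29876 at PWK 7, 26796 to 30988 at PWK 14 and 38238 to 43238 at PWK 28.

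Some chaperones rose in each step, and most rose over the whole span (68.8% of the list, against 21.8% of all genes). Of 32 heat shock and protein folding genes, 11, 15 and 22 rose in turn over the first step, the second and the span, with none lower and medians of 0.17, 0.19 and 0.36. The later count was 5 without the olfactory set and 10 with correction for GC content and length. Hspa5, the endoplasmic reticulum chaperone BiP, was at 5586, 5091, 5346 and 4804 at PWK 7, 7649, 7985, 6428 and 6079 at PWK 14 and 8902, 10037, 9801 and 11211 at PWK 28, with each age above the one before. It rose by 0.43 (SE 0.09, adjusted p = 0.008) and then by 0.51 (SE 0.09, adjusted p = 0.0011). Hspa8, the constitutive cytosolic chaperone, rose by 0.25 and 0.21, although the second call was lost without the olfactory set (adjusted p = 0.19).

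Hspa1b, an inducible chaperone, was at 195, 179, 161 and 167 at PWK 7, 476, 428, 396 and 348 at PWK 14 and 408, 470.2, 366 and 404 at PWK 28. The first step was 1.22 (SE 0.11, adjusted p = 2.99e-05), and the second 0.00 (SE 0.11, adjusted p = 0.98), with PWK 14 and 28 overlapping. Its near-identical neighbour Hspa1a rose by 0.80 in the first step, and reads of these copies may have been divided between them by the quantification. Dnajb5, a co-chaperone, rose by 0.56 (SE 0.06, adjusted p = 1.12e-04) and 0.42 (SE 0.06, adjusted p = 3.78e-04), from a range of 2657 to 3099 at PWK 7 to one of 5307 to 6087 at PWK 28.

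A heat shock element, here GAA, TTC and GAA each 2 bases apart (TTC, GAA and TTC on the other strand), was found on either strand in 3 of 26 promoters of the list and in 0.603% of all windows. One of the 3 belonged to Hsph1, a nucleotide exchange factor for Hsp70, named here for its promoter (RefSeq, GRCm38.p6, chr5:149636287-149636586, minus strand, element in capitals):
Hsph1: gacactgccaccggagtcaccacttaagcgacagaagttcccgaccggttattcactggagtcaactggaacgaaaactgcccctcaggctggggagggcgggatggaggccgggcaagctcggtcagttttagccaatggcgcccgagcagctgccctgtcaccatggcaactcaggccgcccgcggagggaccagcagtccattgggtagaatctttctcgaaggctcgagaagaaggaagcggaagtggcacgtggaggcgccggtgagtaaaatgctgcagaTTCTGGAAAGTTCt
Hsph1 itself was at 6991 to 8101 at PWK 7, 8058 to 9203 at PWK 14 and 10009 to 10518 at PWK 28, with a whole-span difference of 0.45 (SE 0.05, adjusted p = 3.90e-05).

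**Figure D3:**
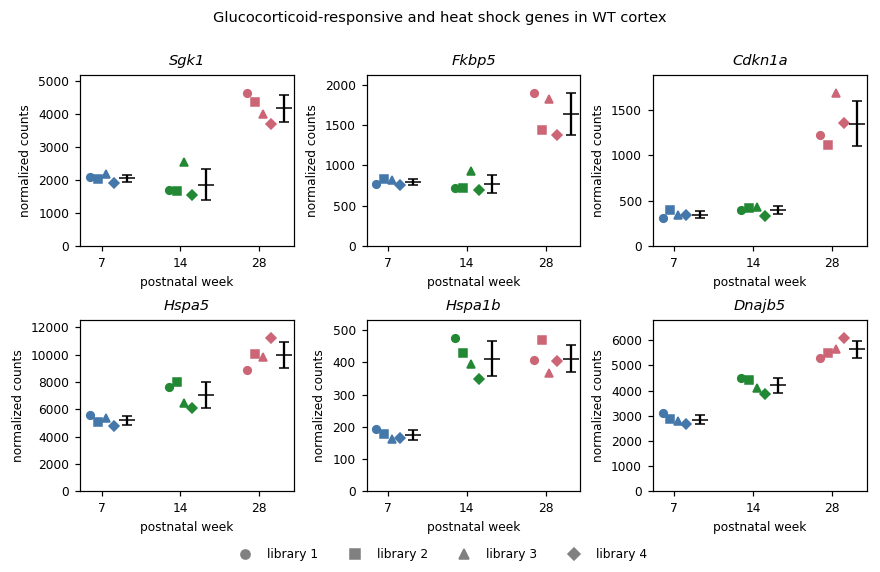
Normalized counts of 3 glucocorticoid-responsive genes (Sgk1, Fkbp5, Cdkn1a) and 3 chaperone genes (Hspa5, Hspa1b, Dnajb5) in the 12 libraries, by postnatal week, with the mean ± SD (n = 4) beside each group. The first 3 stand high at week 28, Hspa5 and Dnajb5 are higher at each age than at the one before, and Hspa1b is higher at weeks 14 and 28 than at week 7.

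**Figure D4:**
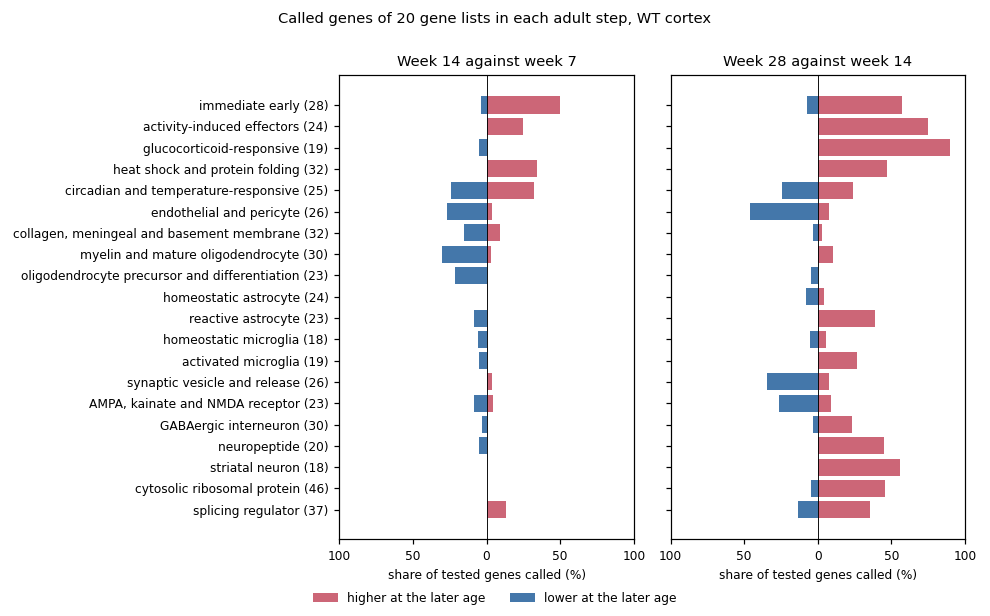
Share of the tested genes of 20 lists that were called higher (red, to the right) or lower (blue, to the left) at the later age, for week 14 against 7 and week 28 against 14, with the number of genes tested in brackets. In the later step 89.5% of the glucocorticoid-responsive list was called, against 16.3% of all genes.

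Many vascular genes fell. Of 26 endothelial and pericyte genes, 1 rose and 7 fell from PWK 7 to 14, 2 rose and 12 fell from PWK 14 to 28, and 16 fell over the span with 0 higher, with medians of -0.25, -0.32 and -0.51. Slco1a4, a transporter of the blood-brain barrier (chr6:141805440-141856199, GRCm38), was at 2417, 2044, 2195 and 2147 at PWK 7, 1617, 1696, 1773 and 1925 at PWK 14 and 1336, 1097, 952 and 1064 at PWK 28. Each age lay below the one before. The differences were -0.33 (SE 0.09, adjusted p = 0.039) and -0.66 (SE 0.09, adjusted p = 2.03e-04); the first lost its call without any one of libraries 1, 2 or 3 of PWK 14 or 1, 3 or 4 of PWK 7 (adjusted p up to 0.11).

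Myh11, the smooth muscle myosin of arterial mural cells, was at 459, 416, 364 and 369.9 at PWK 7, 225, 299, 276 and 263 at PWK 14 and 232, 149, 198 and 212 at PWK 28. PWK 7 stood above both later ages, which overlapped, and the whole-span difference was -1.03 (SE 0.13, adjusted p = 7.77e-05). Acta2, the smooth muscle actin, fell by 0.94 (SE 0.14, adjusted p = 2.81e-04) over the span, and the endothelial transcription factor gene Sox18 fell by 1.13 (SE 0.15, adjusted p = 1.25e-04). Cdh5, the endothelial cadherin, was at 441 to 516 at PWK 7, 352 to 419 at PWK 14 and 235 to 399 at PWK 28 and fell by 0.63 (SE 0.13, adjusted p = 0.0025). Pecam1, the adhesion molecule of endothelial junctions, fell by 0.35 (SE 0.09, adjusted p = 0.0089), a call that was lost without the olfactory set (adjusted p = 0.15).

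Cldn5, the tight junction protein of brain endothelium, moved up and then down. It was at 562, 487, 549 and 545 at PWK 7, 756, 700.4, 683 and 806 at PWK 14 and 346, 363, 345 and 334 at PWK 28, with PWK 14 above all other libraries and PWK 28 below them. The differences were 0.46 (SE 0.07, adjusted p = 0.0014) and -1.08 (SE 0.07, adjusted p = 1.72e-06). Ly6a and Ly6c1, surface proteins of endothelial cells, had later differences of 0.34 and 0.34 and whole-span differences of 0.02 and 0.06, and Slc2a1, the glucose transporter of the barrier, was at 3077 to 3382 at PWK 7, 2417 to 3096 at PWK 14 and 2551 to 3225 at PWK 28. The list had 17 falls over the span without the striatal pair and 13 without the olfactory set, but 5 in place of 12 in the later step without the olfactory set and 7 without library 2 or library 3 of PWK 28. Its 7 falls of the first step were 3 without library 1 of PWK 14 or library 3 or 4 of PWK 7, and 4 without library 2 of PWK 14 or library 1 of PWK 7. In one fit of all 64 libraries, 0 fell in the first step and 7 in the later one. The list passed in fewer genes of the hippocampus, where 9 fell and 1 rose over the span. Of all 18402 genes tested there, 1584 fell over the span.

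Several genes of vessels and matrix were named by the rule for their first-step falls. Eln, elastin, was at 414, 508, 331 and 384 at PWK 7, 191, 299.5, 232 and 223 at PWK 14 and 279, 184, 269 and 229.6 at PWK 28. Its first-step difference was -0.79 (SE 0.16, adjusted p = 0.0083), and PWK 7 and 14 did not overlap, as the rule requires. Emilin2, an elastic fibre glycoprotein, was at 147, 170.1, 125 and 161 at PWK 7, 67.8, 65.2, 86.98 and 88.7 at PWK 14 and 158, 131, 164 and 122 at PWK 28, and fell by 0.96 and then rose by 0.89. Angptl2, an angiopoietin-like secreted protein, fell by 1.08 (SE 0.18, adjusted p = 0.0031), and Hspa12b, an Hsp70 relative of endothelial cells, fell by 0.90 (SE 0.13, adjusted p = 8.18e-04). Of 32 collagen, meningeal and basement membrane genes, 3 rose and 5 fell in the first step, 1 rose and 1 fell in the second, and 3 rose and 3 fell over the span. These were 25%, 6.25% and 18.8% of the list, against 5.99%, 16.3% and 21.8% of all genes. The 5 first-step falls were 3 without library 3 of PWK 14, library 1 or library 4 of PWK 7, or the olfactory set, and with equal totals 4 rose in the second step and 5 over the span. In one fit of all 64 libraries 1 fell in the first step. Nid1, a basement membrane linker, was among the first-step falls (-0.48, adjusted p = 0.06 without library 3 of PWK 7). Col4a1, its collagen partner, was among the first-step rises (0.22, SE 0.05, adjusted p = 0.017), at 1773 to 1928 at PWK 7, 1970.3 to 2224 at PWK 14 and 1982 to 2125 at PWK 28.

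**Figure D5:**
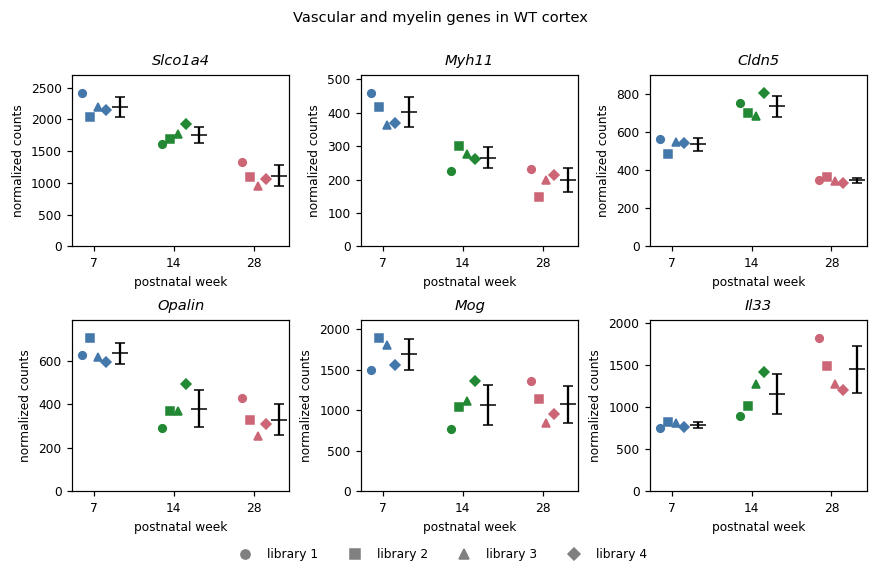
Normalized counts of 3 vascular genes (Slco1a4, Myh11, Cldn5) and 3 oligodendrocyte genes (Opalin, Mog, Il33) in the 12 libraries, by postnatal week, with the mean ± SD (n = 4) beside each group. Slco1a4 falls at each age, Cldn5 is highest at week 14, Opalin and Mog are lower in every library of week 14 than at week 7, and Il33 is lowest at week 7.

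Some myelin genes fell from PWK 7 to 14. Of 30 genes of myelin and mature oligodendrocytes, 1 rose and 9 fell in the first step, 3 rose and 0 fell in the second, and 4 rose and 12 fell over the span, with medians of -0.34, 0.12 and -0.30. The 9 first-step falls were 4 without library 2 of PWK 7, and the 4 rises over the span were 2 without library 1 or 4 of PWK 7 or without the striatal pair. One fit of all 64 libraries gave 4 falls in the first step, and 7 falls and 2 rises over the span. Mog, a surface protein of the outer myelin sheet, was at 1495, 1889, 1806 and 1562 at PWK 7, 764, 1038, 1111 and 1355 at PWK 14 and 1365, 1139, 838 and 949 at PWK 28. All 4 libraries of PWK 14 lay below those of PWK 7, and within PWK 14 the values spread nearly as far as the step itself. The first difference was -0.68 (SE 0.16, adjusted p = 0.019), and its adjusted p rose to as much as 0.061 without library 1 of PWK 14 or libraries 2 or 3 of PWK 7.

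Opalin, a sialoglycoprotein of the myelin paranode, fell by 0.77 (SE 0.15, adjusted p = 0.008) from a range of 594 to 703 at PWK 7 to one of 289 to 492 at PWK 14. Mal, a lipid raft protein of myelin, fell by 0.67 (SE 0.14, adjusted p = 0.0099), and the tetraspanin Tspan2 fell by 0.63 (SE 0.12, adjusted p = 0.0062). Mbp, myelin basic protein, did not pass at all, with 69992, 89413, 74634 and 69349 at PWK 7, 43699.5, 56506, 64899 and 77538 at PWK 14 and 78094, 60600.3, 50963 and 54524 at PWK 28. The summed level of the 30 genes was 210641 to 262315 at PWK 7, 135335 to 211068 at PWK 14 and 165086 to 236093 at PWK 28, so the ages overlapped.

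The 4 genes that rose over the span included a nuclear factor and a cytoskeletal protein. Il33, an alarmin kept in the nucleus of oligodendrocytes, was at 756, 820.1, 809 and 761 at PWK 7, 897, 1016, 1281 and 1415 at PWK 14 and 1823, 1496, 1278 and 1201 at PWK 28, with PWK 7 below all other libraries and a whole-span difference of 0.86 (SE 0.13, adjusted p = 4.36e-04). Anln, which encodes the septin-binding protein anillin of myelin, rose by 0.72 (SE 0.15, adjusted p = 0.0037) over the span. Klk6, a secreted protease, was at 32.3, 40.2, 52.4 and 65.5 at PWK 7, 21.2, 20.9, 24.5 and 44.7 at PWK 14 and 77.6, 61.8, 43.7 and 51.1 at PWK 28, and its later difference of 1.08 lost the call without the striatal pair (adjusted p = 0.13). Over the span the myelin list had 15 falls without the striatal pair but 1 without the olfactory set.

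In the precursor list, 5 of 23 fell in the first step, 1 in the second and 6 over the span, with none higher. Without any one of the libraries of PWK 7, or without library 1, 2 or 3 of PWK 14 or the olfactory set, 2 or 3 fell in the first step, and without library 3 of PWK 7, 3 fell over the span. One fit of all 64 libraries gave 2 falls in the first step. Pdgfra, the growth factor receptor that defines these precursors, was at 2157, 2372, 2283 and 2246 at PWK 7, 1765, 1718, 1878 and 2051 at PWK 14 and 2174, 2184, 1974 and 1858 at PWK 28 and fell in the first step (-0.29, SE 0.06, adjusted p = 0.014). Gpr17, a receptor of cells leaving the precursor state, fell by 0.49 (SE 0.08, adjusted p = 4.18e-04) over the span. Olig1, a transcription factor of the lineage, had a first-step difference of -0.31 (adjusted p up to 0.082 without single libraries, namely 1, 2 or 3 of PWK 14 and 2, 3 or 4 of PWK 7), and Enpp6, a marker of newly formed oligodendrocytes, was at 374 to 479.7 at PWK 7, 183 to 322 at PWK 14 and 234 to 436 at PWK 28.

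Few genes of resting astrocytes were called in either step. Of 24, 0 passed in the first step (6 had an unadjusted p under 0.05), 1 rose and 2 fell in the second, and 1 rose and 7 fell over the span. The calls over the span were 33.3% of the list, against 21.8% of all genes. The 7 falls were 4 without library 3 or 4 of PWK 28 or library 3 of PWK 7 and 2 without the olfactory set. There were 4 falls in the first step without library 4 of PWK 14, and 4 in the second without library 2 of PWK 14 or library 1 of PWK 28. Slc1a2, the main glutamate transporter, was at 122679, 125658, 128045 and 125066 at PWK 7, 108558, 110798, 130812 and 122888 at PWK 14 and 114625, 96022, 94458 and 98776 at PWK 28 and fell by 0.32 (SE 0.07, adjusted p = 0.0045) over the span, with an adjusted p of 0.06 without the olfactory set. The water channel gene Aqp4 was at 3101 to 3474 at PWK 7, 2609 to 3166 at PWK 14 and 2699 to 3408 at PWK 28, and Slc1a3, the second glutamate transporter, had a span difference of -0.07 (SE 0.06). Gjb6, connexin 30, rose by 0.57 (SE 0.08, adjusted p = 1.49e-04). Of 23 reactive astrocyte genes, 2 fell in the first step, 9 rose in the second, and 6 rose and 1 fell over the span, with 5 and 2 rises in the second step and the span without the olfactory set. Gfap, the intermediate filament of astrocytes, was at 2811, 4031, 2799.8 and 3144 at PWK 7, 1675, 2141, 2433 and 2041 at PWK 14 and 4062, 2553, 3114 and 2977 at PWK 28; it was lowest at PWK 14, where library 1 was the lowest of the 12, and the later difference was 0.61 (SE 0.14, adjusted p = 0.0091). Timp1, a protease inhibitor, rose by 1.91 (SE 0.32, adjusted p = 0.0012) in the later step, from a range of 3.28 to 9.80 at PWK 14 to one of 21.4 to 36.1 at PWK 28.

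Homeostatic microglial genes fell over the span in part. Of 18 homeostatic microglia genes, 1 fell in the first step, 1 rose and 1 fell in the second, and 7 fell over the span with a median of -0.26. These were 5.56%, 11.1% and 38.9% of the list, against 5.99%, 16.3% and 21.8% of all genes. Cx3cr1, the fractalkine receptor, was at 1721, 1701, 1669 and 1666 at PWK 7, 1702, 1468, 1729.5 and 1944 at PWK 14 and 1449, 1412, 1335 and 1313 at PWK 28 and fell by 0.30 (SE 0.07, adjusted p = 0.0065), a call lost without the olfactory set (adjusted p = 0.1). P2ry12, the purinergic receptor, was at 1505 to 1561 at PWK 7, 1276 to 1596 at PWK 14 and 1123 to 1397 at PWK 28, Tmem119, a membrane protein of microglia, at 665 to 751 at PWK 7, 635 to 745 at PWK 14 and 654 to 781 at PWK 28, and Csf1r, their growth factor receptor, at 3565 to 4156 at PWK 7, 2875 to 3749 at PWK 14 and 3620.4 to 4156 at PWK 28. Over the span the list gave 1 rise and 1 fall without the olfactory set, and 4 falls without library 3 or library 4 of PWK 28. One fit of all 64 libraries gave 1 fall over the span. In the later step the list gave 5 falls without the striatal pair or with correction for GC content and length. Of 19 activated microglia genes, 1 fell in the first step, 5 rose in the second and 1 rose over the span, or 5.26%, 26.3% and 5.26%. The 5 rises were 3 without library 3 or 4 of PWK 28 or the olfactory set and 2 without the striatal pair. One fit of all 64 libraries gave 1 rise in the second step. The gene that rose over the span was Spp1, osteopontin, at 117, 177, 180.00 and 173 at PWK 7, 154, 163, 166 and 93.4 at PWK 14 and 381, 239, 362 and 328 at PWK 28, with a later difference of 1.19 (SE 0.20, adjusted p = 0.001). Cd52, a small surface glycoprotein of immune cells, had a later difference of 0.97 that was lost without the striatal pair (adjusted p = 0.067) and without the olfactory set (adjusted p = 0.07).

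Complement component C4b was at 612, 747, 390.3 and 475 at PWK 7, 551, 522, 674 and 444 at PWK 14 and 967, 698, 925 and 872 at PWK 28 and rose by 0.66 (SE 0.17, adjusted p = 0.016) in the later step, which did not hold without library 4 of PWK 14 (adjusted p = 0.052) or without the olfactory set (adjusted p = 0.078). Of the 23 complement and MHC class I genes, 1, 3 and 3 rose in turn, and none fell. These were 4.35%, 13% and 13% of the list, below the 5.99%, 16.3% and 21.8% called among all genes. C1qa, which starts the classical pathway, was at 966 to 1227 at PWK 7, 924 to 1149 at PWK 14 and 943 to 1182 at PWK 28. H2-Q7, an MHC class I gene with close copies among which reads could be divided, was at 8.43 to 21.2 at PWK 7, 19.3 to 32.99 at PWK 14 and 22.7 to 36.1 at PWK 28. Of 27 interferon-stimulated genes, 0 passed in either step by limma (4 in each had an unadjusted p under 0.05), and 3 rose over the span. These 3 were 11.1% of the list, against 21.8% of all genes. In the blood and lymphocyte list 0 of 11 passed in the first step (1 had an unadjusted p under 0.05) and 3 rose in the second.

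Genes of transmitter release fell more often than they rose in the later step. Of 26 synaptic vesicle genes, 1 rose in the first step, 2 rose and 9 fell in the second, and 3 rose and 6 fell over the span. The medians were 0.08, -0.10 and -0.04 in turn, and in the first step 25 of the 26 differences were positive. Summed levels were 513391 to 541797 at PWK 7, 538172 to 582108 at PWK 14 and 478335 to 526070 at PWK 28. Slc17a7, the vesicular glutamate transporter of cortical neurons, was at 42405, 42539.5, 43631 and 44621 at PWK 7, 46912, 47498, 44075 and 46516 at PWK 14 and 34746, 40205, 38354 and 37817 at PWK 28, with PWK 28 below both earlier ages (-0.29, SE 0.05, adjusted p = 8.34e-04). Syn1, synapsin I, fell by 0.36 (SE 0.05, adjusted p = 2.83e-04), and Stx1a, the plasma membrane SNARE syntaxin, fell by 0.31 (SE 0.05, adjusted p = 0.0013). Bsn, the active zone scaffold bassoon, was at 17428 to 18512 at PWK 7, 20620.5 to 21558 at PWK 14 and 18577 to 19115 at PWK 28. Sv2c, a vesicle protein, rose by 0.65 (SE 0.09, adjusted p = 1.97e-04).

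Of 23 AMPA, kainate and NMDA receptor genes and their partners, 1 rose and 2 fell in the first step, 2 rose and 6 fell in the second, and 4 rose and 6 fell over the span. The NMDA receptor subunit genes Grin2a and Grin2b rose in the later step. Grin2a was at 8481, 7854, 7864 and 8106 at PWK 7, 6728, 7361, 7562 and 6483 at PWK 14 and 10144, 9742, 10079 and 9341 at PWK 28 and rose by 0.48 (SE 0.05, adjusted p = 4.71e-05). Grin2b rose by 0.40 (SE 0.07, adjusted p = 0.0012), with a span difference of 0.13 that did not pass. Cnih2, an auxiliary subunit of AMPA receptors, fell by 0.37 (SE 0.05, adjusted p = 2.19e-04), and the kainate receptor gene Grik5 fell by 0.37 (SE 0.05, adjusted p = 5.07e-04), while Gria2, the subunit that keeps AMPA receptors closed to calcium, was at 24683 to 25410.3 at PWK 7, 22163 to 24446 at PWK 14 and 23447 to 24536 at PWK 28. Rescaled to equal totals, 3 rose and 3 fell in the later step. The 6 later falls were 3 without the striatal pair, library 2 of PWK 14 or library 1 or 4 of PWK 28 and 2 without library 1 of PWK 14, and 4 rose there without the striatal pair or its library 2 alone. Over the span 2 in place of 6 fell without the striatal pair, and the 4 rises were 2 without library 3 or 4 of PWK 28 or library 1 or 4 of PWK 7 and 1 without the olfactory set.

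Other neuronal groups were mixed, and some were called no more often than all genes. Of 17 GABA-A receptor genes, 0 rose and 1 fell, 1 rose and 1 fell, and 0 rose and 3 fell in turn. These were 5.88%, 11.8% and 17.6% of the list, below the 5.99%, 16.3% and 21.8% called among all genes. Of 25 sodium and potassium channel genes, 1 rose and 0 fell, 2 rose and 7 fell, and 4 rose and 6 fell, while equal totals gave 3 rises and 2 falls in the later step. The later step gave 0 rises and 1 fall without the olfactory set and 4 falls without the striatal pair, while 3 fell without library 3 of PWK 28 and 4 without library 3 of PWK 14, library 4 of PWK 28 or library 3 of PWK 7. Over the span the 6 falls were 3 without library 3 or 4 of PWK 28, library 3 or 4 of PWK 7 or the olfactory set and 2 without the striatal pair, and the 4 rises were 2 without library 3 of PWK 28 and 1 without the olfactory set. Of 19 perineuronal net genes, 0 rose and 1 fell, 1 rose and 2 fell, and 3 rose and 4 fell, with 2 span falls without the olfactory set and 4 later rises without library 2 of PWK 28. The calls of the single steps were 5.26% and 15.8% of that list, near the shares of all genes. Among 22 neurofilament and axon cytoskeleton genes, 4 rose and 1 fell, 1 rose and 3 fell, and 5 rose and 3 fell. The 4 first-step rises were 1 without library 1 or 2 of either age and with the replicate block, and 2 without library 3 of PWK 7, without the olfactory set or with correction for GC content and length. One fit of all 64 libraries gave 0 first-step rises. Nefh, the heavy neurofilament, rose in the first step (0.29, SE 0.05, adjusted p = 0.0033), from 1255, 1378, 1335 and 1312 at PWK 7 to 1671, 1612, 1567 and 1615 at PWK 14, and the medium chain Nefm rose by 0.42 (SE 0.07, adjusted p = 4.61e-04) over the span.

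Of 26 cortical layer markers, 3 rose and 0 fell, 1 rose and 4 fell, and 3 rose and 5 fell. These were 11.5%, 19.2% and 30.8% of the list, against 5.99%, 16.3% and 21.8% of all genes. The 4 later falls were 7 without library 4 of PWK 14 and 2 without the olfactory set, and the 5 over the span were 2 without the olfactory set and 3 without library 3 of PWK 28 or library 3 or 4 of PWK 7. Rorb, a layer 4 factor, was at 1374, 1046, 1404 and 1503 at PWK 7, 1387, 1452, 1652 and 1576 at PWK 14 and 1073, 1112, 840.5 and 1071 at PWK 28 and fell by 0.57 (SE 0.11, adjusted p = 0.0024) in the later step, with an adjusted p of 0.055 without the olfactory set. Tbr1, a factor of deep layers, fell by 0.38 (SE 0.05, adjusted p = 2.83e-04). Fezf2, which specifies subcerebral projection neurons, rose by 0.46 (SE 0.10, adjusted p = 0.011) in the first step. Of 27 immature neuron genes, 2 rose and 2 fell, 4 rose and 3 fell, and 4 rose and 4 fell. In both the later step and the span the 4 rises were 0 without the olfactory set and 8 without the striatal pair. In the later step they were 2 without library 3 or 4 of PWK 28 and 1 with correction for GC content and length. Over the span they were 2 without library 3 of PWK 28 or library 2 of PWK 7, 1 without library 3 of PWK 7 and 0 without library 4 of PWK 28. The 4 falls over the span were 7 without the olfactory set and 2 without the striatal pair or its library 1 alone. Dcx, doublecortin of migrating neuroblasts, was at 2186, 2192, 2341 and 2253 at PWK 7, 1451, 1545, 1744 and 1500.5 at PWK 14 and 1653, 1478, 2251 and 2635 at PWK 28, and libraries 3 and 4 of PWK 28, the pair with high olfactory bulb markers, were its highest at that age.

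Several gains at PWK 28 moved with markers of neighbouring tissue. In the first step 0 markers of striatum, olfactory bulb or choroid plexus passed, at an adjusted or an unadjusted p under 0.05. Of the 18 striatal markers, 10 rose in the second, with a median of 0.80, 5 rose without the striatal pair and 13 without the olfactory set. Over the span 10 rose, and 4 without the striatal pair. Drd2 was at 57.1, 39.01, 74.8 and 129.97 at PWK 7, 50.8, 36.2, 99.1 and 58.8 at PWK 14 and 352, 299, 105 and 170.3 at PWK 28, with libraries 1 and 2 of PWK 28 the highest. Its later difference of 1.84 (SE 0.40, adjusted p = 0.006) was lost without that pair (adjusted p = 0.08). Drd1 had a later difference of 0.66 (SE 0.15, adjusted p = 0.009), and an adjusted p of 0.093 without the pair. Lrrc10b and Syndig1l, both abundant in striatum, rose most among the genes named by the rule for the later step (1.86 and 1.85), and followed the same libraries, with Lrrc10b at 398, 309.7, 103 and 194 and Syndig1l at 355, 271, 168 and 242 at PWK 28. Without the pair Lrrc10b had an adjusted p of 0.076.

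Of 30 GABAergic interneuron genes, 0 rose and 1 fell in the first step, and 7 rose and 1 fell in the second, with 4 rising without the olfactory set, 12 without the striatal pair and 11 without library 2 of PWK 28. Over the span 8 rose, which became 13 without the striatal pair, 4 without the olfactory set and 5 without library 3 or 4 of PWK 28 or of PWK 7. Gad1, the enzyme that makes GABA, was at 8374, 8466, 8462 and 8262 at PWK 7, 9092, 8962, 8822 and 8139 at PWK 14 and 9501, 10866, 13828 and 14364 at PWK 28. Libraries 3 and 4 of PWK 28 were the highest, and without the olfactory set the later difference of 0.45 (SE 0.10) had an adjusted p of 0.067. Sst, somatostatin of an interneuron class, was at 2707 to 3433 at PWK 7, 2802 to 3212 at PWK 14 and 2667 to 3534 at PWK 28.

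Of 20 neuropeptide genes, 0 rose and 1 fell in the first step and 9 rose in the second, as also without the olfactory set, and 10 without the striatal pair. Penk, proenkephalin, was at 1008, 854, 1001 and 1247 at PWK 7, 832, 821, 936 and 809.98 at PWK 14 and 2311, 1975, 1409 and 2024 at PWK 28 and rose by 1.16 (SE 0.13, adjusted p = 7.13e-05), and the tachykinin gene Tac1 rose by 0.80 (SE 0.12, adjusted p = 5.69e-04). Both are also striatal genes, and in both the lowest library of PWK 28 was library 3, the one with the lowest striatal markers at that age. Crh, corticotropin-releasing hormone, was at 78.1, 57.8, 92.4 and 89.9 at PWK 7, 82.97, 73.2, 78.3 and 63.1 at PWK 14 and 139.8, 144, 178 and 184 at PWK 28, without overlap between PWK 28 and the earlier ages (1.10, SE 0.16, adjusted p = 4.52e-04). Nts, neurotensin, was at 4.51, 6.67, 9.60 and 9.42 at PWK 7, 10.6, 9.66, 6.17 and 5.49 at PWK 14 and 59.6, 21.04, 19.3 and 27.98 at PWK 28 and rose by 1.77 (SE 0.38, adjusted p = 0.0053). The one fall of the first step was Npy, neuropeptide Y, at 1737 to 1957 at PWK 7, 1384 to 1721 at PWK 14 and 1548 to 1737 at PWK 28 (-0.32, SE 0.07, adjusted p = 0.0094).

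Of 17 olfactory bulb markers, 0, 1 and 3 rose in turn, and 14 rose in the later step and 15 over the span without the striatal pair, which leaves libraries 3 and 4. Without library 2 of PWK 28 alone these counts were 6 and 10, and 8 rose over the span without library 1. Cdhr1, a cadherin of mitral cells, was at 137, 115, 1576 and 1698 at PWK 28. Slco5a1, Fabp7 and Dnah11, named by the rules, followed those libraries, with Slco5a1 at 99.6, 103, 304 and 356, Fabp7 at 394, 382, 847 and 866 and Dnah11 at 44.1, 31.8, 246 and 300.00 at PWK 28. Of 18 choroid plexus and ependymal markers, 0, 1 and 4 rose in turn. Without library 4 of PWK 28, 5 rose in the later step and 8 over the span, where 8 also rose without the olfactory set, 1 without the striatal pair or library 2 or 4 of PWK 7 and 2 without library 3 of PWK 7. Clic6, a chloride channel of that epithelium, was at 63.96, 292, 68.4 and 47.7 at PWK 28. Of 17 thalamic, septal and hippocampal markers, 1 rose and 1 fell in the first step, 1 fell in the second and 0 passed over the span (2 had an unadjusted p under 0.05). How far tissue beyond the frontal cortex set these differences was not tested.

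Most genes of the circadian and temperature-responsive list passed over the span, in both directions. The list also held chaperone genes counted above, among them Hspa1a, Hspa1b and Hsph1, and the layer marker Rorb. All mice were taken in the afternoon, and the hour for each library was not analysed here. Of 25 circadian and temperature-responsive genes, 8 rose and 6 fell in the first step, 6 rose and 6 fell in the second, and 10 rose and 9 fell over the span, 76.0% of the list. The later step gave 3 rises and 2 falls without the olfactory set, and the span 5 falls. Ciart, a repressor of the clock, was at 693, 773, 826 and 802 at PWK 7, 352, 371, 469.7 and 409 at PWK 14 and 548, 578, 428 and 484 at PWK 28, with PWK 14 below PWK 7 in every library (-0.95, SE 0.10, adjusted p = 1.13e-04). The E-box CACGTG, to which the CLOCK and BMAL1 pair binds, was present 3 times in a Ciart promoter (RefSeq, GRCm38.p6, chr3:95882179-95882478, minus strand, matches in capitals):
Ciart: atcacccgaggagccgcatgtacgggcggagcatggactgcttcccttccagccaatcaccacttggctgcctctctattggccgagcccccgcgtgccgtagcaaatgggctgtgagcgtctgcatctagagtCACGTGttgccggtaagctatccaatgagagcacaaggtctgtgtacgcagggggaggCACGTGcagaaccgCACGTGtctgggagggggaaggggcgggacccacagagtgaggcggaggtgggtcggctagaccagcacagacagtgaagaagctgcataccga
It was in 6 of 22 promoters of the list and in 7.15% of all windows.

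Dbp, a transcription factor at the output of the clock, was at 3139, 3067, 3071 and 3182 at PWK 7, 2205, 2056, 2050.1 and 2069.8 at PWK 14 and 1699.6, 1900.3, 1596 and 1849.7 at PWK 28, with each age below the one before (-0.57 (SE 0.05, adjusted p = 4.71e-05), then -0.25 (SE 0.05, adjusted p = 0.0052)), the second step with an adjusted p of 0.13 under correction for GC content and length. Nfil3, which competes with it for the same sites, rose by 0.99 (SE 0.13, adjusted p = 7.69e-05) over the span. Usp2, a deubiquitinase, fell by 0.51 (SE 0.05, adjusted p = 5.59e-05) in the first step, and Bhlhe40, a clock repressor that is also induced by activity, rose by 0.72 (SE 0.11, adjusted p = 0.0012).

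Of 25 genes of cholesterol synthesis and uptake, 2 fell in the first step, 2 rose and 4 fell in the second, and 2 rose and 10 fell over the span, with 2 later falls without the striatal pair and 1 without the olfactory set. Insig1, a sterol sensor, fell by 0.37 (SE 0.06, adjusted p = 6.11e-04) over the span, and Hmgcs1, an early enzyme of the pathway, was at 8431 to 9265 at PWK 7, 7504 to 8649.7 at PWK 14 and 7373 to 8839 at PWK 28. Of 18 fatty acid synthesis genes, 1 fell, 3 fell, and 1 rose and 6 fell in turn. The 6 falls over the span were 2 without the olfactory set and 3 without library 4 of PWK 28, and 5 fell in the second step without library 2 of PWK 14. Fads1, a desaturase, fell by 0.27 (SE 0.05, adjusted p = 0.0012) in the later step, and Elovl7, an elongase, fell by 0.46 over the span (adjusted p = 0.059 without the olfactory set).

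Of 46 cytosolic ribosomal protein genes, 0 passed in the first step (3 had an unadjusted p under 0.05), 21 rose and 2 fell in the second, and 18 rose and 1 fell over the span, with medians of -0.01, 0.13 and 0.13. The 21 later rises were 13 without library 2 of PWK 14 or library 1 or 2 of PWK 28. The striatal pair left out, 10 rose and 4 fell in the later step and 7 rose over the span. Rpl27 rose by 0.72 (SE 0.06, adjusted p = 1.02e-05), Rps20 fell by 0.37 (SE 0.08, adjusted p = 0.0045), or with an adjusted p of 0.07 without the olfactory set, and Rpl3 was at 9693 to 10285 at PWK 7, 9561 to 10329.7 at PWK 14 and 10305 to 11249 at PWK 28. Ribosomal protein genes have many processed copies to which reads can be assigned. Of 37 splicing regulators, 5 rose in the first step, 13 rose and 5 fell in the second, and 17 rose and 2 fell over the span. Their later step gave 5 rises and 3 falls without the olfactory set, 7 rises and 6 falls with correction for GC content and length, and 1 fall without the striatal pair, and 3 falls without library 3 of PWK 28 or with equal totals. In the first step 3 rose without the olfactory set or library 4 of PWK 7, and 8 with the correction. Of 35 nuclear oxidative phosphorylation genes, 1 fell, 8 rose and 3 fell, and 5 rose and 2 fell in turn, with 5 later falls without the striatal pair. Over the span 3 rose and 4 fell without library 2 of PWK 28, and 8 rose with equal totals. Of 30 replication and mitosis genes, 0 passed in the first step (7 had an unadjusted p under 0.05), 4 rose in the second and 4 over the span, and none of the 4 later rises held without the striatal pair or without the olfactory set. The 4 rises were 13.3% of the list in each comparison, below the 16.3% and 21.8% called among all genes. Later rises were 2 without library 2 of PWK 14 or library 1 or 4 of PWK 28, and rises over the span 2 without library 3 of PWK 28, library 1 of PWK 7 or the olfactory set.

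Among 14 long and nuclear RNAs, listed because their level can move with library chemistry, 2 rose and 2 fell, 3 rose and 2 fell, and 2 rose and 1 fell in turn, with 4 later falls under correction for GC content and length. The labels name a kit for mRNA and the study's methods one for total RNA, and how the kit bears on these values was not tested. Malat1, a nuclear speckle RNA, was at 26321, 30771, 21806 and 22199 at PWK 7, 17523, 15289, 18833 and 21235 at PWK 14 and 48389.6, 41115, 41702 and 35841 at PWK 28, with all libraries of PWK 28 above the rest (1.20, SE 0.12, adjusted p = 2.84e-05). Neat1, the scaffold of paraspeckles, rose by 0.53 (SE 0.10, adjusted p = 0.003), and Meg3 was at 183323 to 198523 at PWK 7, 183042 to 221419 at PWK 14 and 172646 to 192083 at PWK 28.

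Besides the genes above, the rule named the following for the first step. Serinc2, a serine incorporator, rose by 1.15 (SE 0.13, adjusted p = 1.56e-04), Abca8a, a lipid transporter, by 1.08 (SE 0.25) (adjusted p = 0.064 at most without library 1 or 4 of PWK 7), Tonsl, a DNA repair protein, by 0.99 (SE 0.14, adjusted p = 8.47e-04), and Dnase1l2, a nuclease, by 0.96 (SE 0.14, adjusted p = 0.0011). Usp43, a deubiquitinase, was at 331, 283, 294 and 306 at PWK 7, 126, 136, 135 and 150.2 at PWK 14 and 83.8, 112, 97.4 and 78.96 at PWK 28 and fell by 1.14 (SE 0.12, adjusted p = 9.45e-05). The ubiquitin ligase Rnf122 fell by 0.89 (SE 0.15, adjusted p = 0.0035), and Gucy1a2, a subunit of the nitric oxide receptor, fell by 0.93 (SE 0.19, adjusted p = 0.01). Epha6, an ephrin receptor, fell by 0.82 (SE 0.18, adjusted p = 0.013).

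For the later step the rule named Car12, a membrane-bound carbonic anhydrase, at 215, 160.1, 217 and 206 at PWK 7, 228, 192, 223 and 239 at PWK 14 and 594, 821, 654 and 628 at PWK 28. PWK 28 stood far above both earlier ages, which overlapped (1.60, SE 0.12, adjusted p = 2.91e-06). Prg4, a lubricating proteoglycan, had a difference of 1.27 (SE 0.32, adjusted p = 0.014) that was lost without the striatal pair (adjusted p = 0.11). Of the falls, Mrpl57, a mitochondrial ribosomal protein, fell by 0.81 (SE 0.08, adjusted p = 3.93e-05), and the zinc and manganese transporter gene Slc39a8 fell by 0.78 (SE 0.17, adjusted p = 0.0066), although the latter was lost without the olfactory set (adjusted p = 0.15). Rab11fip1, a vesicle traffic protein, had a difference of -0.78 (SE 0.23) that lost its call without any one of libraries 3 or 4 of PWK 14 or 3 or 4 of PWK 28 (adjusted p up to 0.09).

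Over the 3 ages, 116 genes were called in both steps in the same direction, 0.631% of those tested, with 74 (0.403%) rising and 42 (0.229%) falling. By the wider rule, a called whole span with both steps of its sign, there were 2897 (15.8%), 1439 (7.83%) up and 1458 (7.93%) down. In 230 (1.25%) the libraries of the 3 ages were ordered without any overlap, 124 (0.675%) upward and 106 (0.577%) downward. Without the olfactory set the first 2 counts were 40 and 1455. Leaving out library 1 of PWK 14 or library 4 of PWK 7 gave 74 and 76 in place of 116. Rescaled to equal totals, 59.2% instead of 49.7% of the wider set rose.

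Ccn4, a matricellular protein of Wnt signalling, was at 113, 85.9, 103 and 68.4 at PWK 7, 178, 159.6, 181 and 148 at PWK 14 and 256, 245, 406 and 426 at PWK 28, each age above the one before, with steps of 0.87 and 0.95 (SE 0.19, adjusted p = 0.0036), the later one lost without the olfactory set (adjusted p = 0.073). Slc4a11, a membrane transporter, rose by 1.78 (SE 0.18, adjusted p = 1.24e-05) over the span. On the falling side, Pla2g4e, a phospholipase that makes N-acyl phospholipids, was at 627, 618, 672 and 650.2 at PWK 7, 333, 327, 524 and 452 at PWK 14 and 282, 251, 294 and 206 at PWK 28. The ages did not overlap, which the rule required of PWK 7 and 28, and the span difference was -1.32 (SE 0.14, adjusted p = 1.64e-05). Apcdd1, an inhibitor of Wnt signalling, was at 1078, 991, 1039 and 1132 at PWK 7, 739, 706, 692 and 767 at PWK 14 and 542, 456, 476 and 567 at PWK 28 and fell by 0.54 (SE 0.07, adjusted p = 6.34e-04) in the first step and fell by 0.51 (SE 0.07, adjusted p = 3.81e-04) in the second. Tnfsf10, the death ligand TRAIL, fell by 1.27 (SE 0.17, adjusted p = 9.65e-05), and the kinase gene Map3k21 fell by 1.17 (SE 0.13, adjusted p = 2.01e-05). Vwa3a fell by 1.05 (SE 0.15, adjusted p = 1.90e-04) and Ccdc116 fell by 1.01 (SE 0.14, adjusted p = 1.38e-04).

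A separate contrast set PWK 14 against the mean of PWK 7 and 28. It called 1313 genes (7.14%), 788 (4.29%) with a high and 525 (2.86%) with a low value at PWK 14, and in 3.14% of genes all libraries of PWK 14 lay on one side of the other 8. Rescaling to equal totals turned the share of highs from 60.0% to 40.1%. Tonsl was at 241, 206, 174 and 152 at PWK 7, 409.98, 337, 337 and 437 at PWK 14 and 158, 157, 125 and 151 at PWK 28, with a contrast of 1.17 (SE 0.12, adjusted p = 3.27e-04). Slc19a3, the thiamine transporter, was high at PWK 14 by 0.78 (SE 0.12, adjusted p = 0.0021), and the transcription factor gene Sox21 by 0.63 (SE 0.08, adjusted p = 0.0011). Snurf, which shares a transcript with Snrpn so that its reads may be divided, was high by 0.61 (SE 0.12), a call lost with correction for GC content and length (adjusted p = 0.25). Low at PWK 14 were Gucy1a2 (-0.95, SE 0.17, adjusted p = 0.0047), at 348, 324, 286 and 412 at PWK 7, 152, 243, 233 and 116 at PWK 14 and 375, 305, 327 and 385 at PWK 28, Emilin2 (-0.93, SE 0.13, adjusted p = 0.0013) and Epha6 (-0.83, SE 0.15, adjusted p = 0.0055). Fabp7, the fatty acid binding protein of radial glia and astrocytes, had -0.92 (SE 0.19, adjusted p = 0.011). Neb, nebulin, had -0.78 (SE 0.18), which was lost without library 4 of PWK 14 (adjusted p = 0.066) or the olfactory set (adjusted p = 0.075).

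The same age steps were then compared with those of the hippocampus in 24 libraries. Age differences that themselves differed between regions were called for 30 genes in the first step (0.163%), 52 in the second (0.282%) and 637 over the span (3.46%), and 24 (0.13%), 46 (0.25%) and 462 (2.51%) of these moved higher with age in cortex than in hippocampus. The other 6 (0.0326%), 6 (0.0326%) and 175 (0.95%) moved lower in cortex. The 2 smaller counts moved widely when single libraries were left out, from 10 to 56 and from 21 to 103, and 2 and 2 were called in one fit of all 64 libraries. The hippocampus alone gave 800, 1718 and 2851 calls among 18402 genes tested there. Of the 1101, 2997 and 3995 cortex calls tested in both regions, 294, 941 and 1314 were also called in hippocampus, 292, 937 and 1267 of them in the same direction. These are 26.7%, 31.4% and 32.9% of the cortex calls and 36.8%, 54.8% and 46.1% of the hippocampus calls. The labels do not say which cortex and hippocampus libraries came from one mouse.

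Activity genes were among those that differed between the regions. In the hippocampus 1 immediate early gene rose and 2 fell in the first step, 9 rose and 1 fell in the second, and 11 rose over the span, with a span median of 0.35 against 1.00 in cortex. Of all 18402 genes tested in the hippocampus, 800, 1718 and 2851 were called in turn. Arc moved by 2.97 in cortex and 1.08 in hippocampus over the span, a difference of 1.89 (SE 0.31, adjusted p = 6.59e-04). Ptgs2 moved by 1.62 and -0.17 (1.80, SE 0.16, adjusted p = 4.13e-07), and Egr3 by 1.70 and 0.46 (1.24, SE 0.11, adjusted p = 4.13e-07). Nptx2 moved by 1.17 and -0.06 (1.22, SE 0.12, adjusted p = 1.61e-06), and Bdnf by 1.10 and -0.19 (1.29, SE 0.19, adjusted p = 2.23e-04). For Fos, with 2.34 and 2.24, the difference did not pass (0.10, SE 0.56, adjusted p = 0.96).

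Further genes were singled out by the rule for this comparison. Rara, a retinoic acid receptor, rose by 0.68 in the first step in cortex, against -0.15 in hippocampus (0.83, SE 0.13, adjusted p = 0.0075). Htr1a, an inhibitory serotonin receptor, was at 737, 654, 791 and 707 at PWK 7, 605, 634, 596 and 601 at PWK 14 and 418, 464, 384 and 406 at PWK 28 in cortex, each age below the one before, and moved by -0.79 over the span, against 0.30 in hippocampus (-1.08, SE 0.10, adjusted p = 4.13e-07). Nrp1, a semaphorin receptor, moved by 0.52 and -0.26 (0.78, SE 0.08, adjusted p = 1.61e-06), and Nr2f1, a patterning factor, by -0.76 and -0.18 (-0.58, SE 0.08, adjusted p = 1.04e-04). In the later step Sgsm1, a small GTPase regulator, moved by 0.59 and -0.04 (0.63, SE 0.09, adjusted p = 8.75e-04), and Hip1r, an endocytic adaptor, by -0.39 and 0.23 (-0.62, SE 0.11, adjusted p = 0.013). Mgat5b, a glycosyltransferase, moved by -0.41 and -0.05 (-0.36, SE 0.07, adjusted p = 0.03). In the first step Sertm1 moved by -0.40 and 0.17 (-0.58, SE 0.10, adjusted p = 0.016) and Vgll4, a cofactor of TEAD factors, by -0.45 and 0.08 (-0.54, SE 0.10, adjusted p = 0.028). Tef, a clock-controlled factor, moved by -0.20 and 0.10 over the span (-0.31, SE 0.04, adjusted p = 1.73e-04). Glucocorticoid-responsive genes rose in both regions, with 15 of 19 higher in hippocampus in the later step, and chaperones too, with 21 of 32 higher over the span. Of all 18402 genes tested in the hippocampus, 688 rose in the later step and 1267 over the span.

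Cyfip2, the gene mutated elsewhere in the series, is a subunit of the WAVE complex that drives branched actin assembly. In these WT mice it was at 35788, 34519, 36054 and 36129 at PWK 7, 42735, 44053, 40443 and 39966 at PWK 14 and 34022, 35187, 35279 and 34418 at PWK 28, with all libraries of PWK 14 above the rest (0.23 (SE 0.04, adjusted p = 0.0041), then -0.27 (SE 0.04, adjusted p = 6.04e-04)). Cyfip1, its relative, was at 2500.3 to 2789 at PWK 7, 2181 to 2352 at PWK 14 and 2273 to 2519 at PWK 28. Wasf1, the neuronal WAVE protein, fell by 0.29 (SE 0.06, adjusted p = 0.0023) over the span, and Wasf3 fell by 0.28 in the later step. Of the 16 genes of the complex and family, 1 rose and 2 fell, 1 rose and 3 fell, and 1 rose and 4 fell in turn. The 4 falls over the span were 2 with equal totals, with the replicate block and without either set of libraries, 1 without library 3 of PWK 28 or of PWK 7, and 2 without library 2 or 4 of PWK 28 or of PWK 7.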

How the data were processed

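The deposited table held 64 mouse libraries. Per the study's methods and labels, the authors quantified reads with Salmon against GRCm38, imported them with tximport, removed weakly expressed genes and scaled the estimated counts with DESeq2 over all 64 libraries; the submitters' processing notes list Salmon 0.11.2, DESeq2 1.19.11 and R 3.6.0, while the study's methods name other versions of all 3, so which made the table is not known. The deposited values are therefore normalized estimated counts, a read signal relative to size factors rather than raw counts, and low values gave whole reads for too few genes (29.8% to 53.1%) to recover counts. The step between low values put depth at 25.4 to 35.3 M reads (M, 1e+06) a library, and no transcript length was used, so levels were not compared between genes.

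Log2(value + 1) was fitted with limma 3.58.1 (trend; R 4.3.3) over the 12 libraries with age as the term, for genes with a mean of at least 1, and Benjamini-Hochberg adjustment was over all genes tested. A fold change on this scale understates changes of low genes. The region comparison fitted 24 WT libraries with an interaction of age and region. The fit was tested on simulated data first. Groups came from the labels. All 38 gene lists, the members and the tests were chosen with earlier results of these data known. The rule for named genes took, for each step and for the wider one-way set, up to 10 called protein-coding genes in each direction, by size of difference, whose groups of 4 libraries did not overlap and whose higher group averaged 100 or more. The rule thus made lack of overlap between the compared groups a condition, not a result. It took up to 5 genes in each direction for PWK 14 against the mean of PWK 7 and 28, up to 3 in each direction for each region comparison, and from each list its first 3 genes and up to 4 called members in each direction; for the lists, part of these are printed. Some genes named by the rule are not reported here. Hsph1 was added after its values were seen. Positions are from GENCODE M21 (GRCm38), to which 18420 of 18432 genes matched, and promoters from RefSeq (GRCm38.p6). Alternatives changed the pseudocount, filter, scaling, weights, libraries fitted, GC and length correction, replicate block and each library left out. Leaving out the striatal pair and the olfactory set was chosen after seeing the data.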

Additional observations from a re-analysis of the deposited data

Results flagged for a closer look

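Age differences that differed between cortex and hippocampus were tested as an interaction in 24 libraries (limma, Benjamini-Hochberg adjusted p under 0.05), and are given as the log2 difference in cortex minus that in hippocampus for genes named above. From PWK 7 to 14 the difference was 1.25 for Fosb, 1.10 for Egr1, 0.77 for Nptx2 and 0.97 for Ptgs2. In the same step it was 0.54 for Dnajb5, 0.68 for Bhlhe40, 0.83 for Rara and 0.46 for Nrp1. It was negative in that step for 3 genes, at -0.68 for Htr1a, -0.58 for Sertm1 and -0.54 for Vgll4. From PWK 14 to 28 the difference was 0.84 for Egr3, 1.40 for Rasd1, 0.82 for Ptgs2, 0.68 for Fkbp5 and 0.81 for Sv2c. It was also 2.28 for Drd2, 1.06 for Penk, 2.06 for Syndig1l and 0.63 for Sgsm1. Of these, Drd2, Penk and Syndig1l were in the list of striatal markers, and in cortex Drd2 and Syndig1l were highest in the striatal pair of PWK 28. How far striatal tissue set the differences of these or of other genes was not tested. Negative values of that step were -1.23 for Tonsl, -0.62 for Hip1r, -0.43 for Nr2f1 and -0.36 for Mgat5b. Over the whole span it was 1.53 for Egr2, 1.89 for Arc, 1.08 for Egr1, 1.24 for Egr3, 0.55 for Fosl2 and 1.31 for Rasd1. Effectors of activity gave 1.29 for Bdnf, 1.08 for Homer1, 1.22 for Nptx2, 1.80 for Ptgs2, 0.95 for Gpr3 and 0.81 for Scg2. Further positive values were 0.68 for Fkbp5, 0.88 for Hspa1b, 0.86 for Dnajb5, 0.43 for Col4a1, 0.36 for Grin2a and 0.37 for Grin2b. To these were added 0.58 for Sv2c, 0.35 for Nefm, 1.65 for Syndig1l, 0.80 for Bhlhe40 and 1.47 for Serinc2. The remaining positive values were 1.38 for Car12, 1.72 for Ccn4, 1.08 for Rara, 0.86 for Sgsm1 and 0.78 for Nrp1. Negative values over the span were -0.58 for Gpr17, -0.31 for Tef, -1.12 for Vwa3a, -1.03 for Map3k21 and -1.08 for Htr1a. The other negative values were -0.59 for Sertm1, -0.43 for Vgll4, -0.57 for Hip1r and -0.58 for Nr2f1. The 2 comparisons of single steps share the PWK 14 libraries of both regions.

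In groups of 4 libraries, a single library stood apart from the other 3 in 22 of 483 groups (Dixon's test at the 95% level, which chance passes in about 1 in 20 groups). Library 1 of PWK 7 stood apart for Spp1 at 117, Ttr at 919.6 and Vwa3a at 579. In library 4 of PWK 7 this held for Egr1 at 3991, Elovl7 at 454 and Vgll4 at 1045. For library 1 of PWK 14 it was Dbp at 2205. Library 3 of PWK 14 stood apart for Fkbp5 at 931, Sgk1 at 2547, Drd1 at 399.9, Cdhr1 at 625, Eomes at 99.3 and Abca8a at 487. In library 4 of PWK 14 this held for Klk6 at 44.7, Spp1 at 93.4, Grik5 at 7271, Tef at 13896 and Neb at 42.6. For library 2 of PWK 28 it was Ttr at 20074 and Clic6 at 292. Library 3 of PWK 28 stood apart for Rorb at 840.5 and Sox21 at 183. The olfactory bulb markers Eomes and Cdhr1 stood apart in library 3 of PWK 14 together with Drd1, Fkbp5 and Sgk1, and the choroid plexus markers Ttr and Clic6 in library 2 of PWK 28. Their part in the age differences was not tested.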

How the results depend on the processing

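The alternative pseudocount, filters, scalings, robust fit and fits of 2 ages alone moved none of the 9 counts by over 1.5 times. The share of calls that were higher crossed 50% with equal totals, from 44.3% to 63.4% for the later step, 48.1% to 59.4% for the span, 60.0% to 40.1% for PWK 14 against the mean and 49.7% to 59.2% for the wider one-way set. It was 50.7% for the span with median-ratio rescaling. The wider one-way set, near an even split, had 51.7% with that rescaling, 50.1% in one fit of all 64 libraries, 51.8% without the striatal pair and 50.1% to 50.9% without library 2 of PWK 28 or library 1, 3 or 4 of PWK 7. First-step region differences were 80.0% higher in cortex, and 0 of 2 in one fit of all 64 libraries. Sample quality weights gave 56 region differences in the first step and 1056 over the span, in place of 30 and 637. Correction for GC content and length gave 828 genes in place of 1313 for PWK 14 against the mean of PWK 7 and 28, and 27 in place of 52 region differences in the later step. One fit of all 64 libraries, in which hippocampal and mutant libraries share in the estimate of spread, gave 575 genes from PWK 7 to 14, 744 for PWK 14 against the mean of the other ages, 29 called in both steps, and 2, 2 and 209 region differences. Without the striatal pair there were 294 region differences in the later step. Without the olfactory set, which also leaves fewer libraries, counts were 1328 for the later step, 1971 for the span, 715 for PWK 14 against the mean, 40 and 1455 for the one-way sets, and 14, 14 and 271 for the regions. The causes were not tested.

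Leaving out 1 library at a time gave 665 to 1122 genes from PWK 7 to 14, 2101 to 2855 from PWK 14 to 28, 3058 to 4264 over the span and 721 to 1265 for PWK 14 against the mean. The one-way counts ran from 74 to 112 and from 2286 to 3063. Region differences ran from 10 to 56, 21 to 103 and 426 to 730. For PWK 14 against the mean, libraries 1 and 4 of PWK 14 lowered the count of 1313 to 721 and 804. In the first step, region differences fell to 10 without library 1 or 2 of hippocampus at PWK 14 and to 11 without library 3 of cortex at PWK 7, and reached 56 without library 4 of hippocampus at PWK 14. In the later step the lowest count, 21, came without library 4 of cortex or library 3 of hippocampus at PWK 28, and the highest, 103, without library 2 of cortex at PWK 28.

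The labels number the replicates alike at each age, but nothing says that a number marks a shared litter or day, and mice differ between ages. Over 12819 genes, deviations from group means correlated at a mean of -0.01 between cortex libraries of equal number and 0.00 between those of unequal number, with 2 of 12 equal-number pairs over 0.1. With the replicate number as a block, 756 genes passed from PWK 7 to 14, 820 for PWK 14 against the mean, and 13 and 23 region differences in the steps. Of 369 called differences of named genes, 124 lost the call in the fit of all 64 libraries, 78 without the olfactory set, 36 without the striatal pair and 27 with the block, and 0 changed direction under any alternative. Of 68 list counts of 4 or more, 39 moved by over 1.5 times in the fit of all 64 libraries, 37 without the olfactory set, 20 without the striatal pair, 33 without at least 1 of the single libraries, 6 with equal totals, 5 with correction for GC content and length, 4 with the block and 1 with quality weights.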
